A study of Mus musculus with 4 samples.

Results

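The collagen processing and crosslinking enzymes are the proteins that modify, fold, trim and crosslink collagen after its chains are made. Genes were chosen by name, with earlier results of these data known: P4ha1, P4ha2, Plod1, Plod2, Plod3, Lox, Loxl1, Loxl2, Serpinh1 and Pcolce, 10 in all. Of the 10, 9 were measured, and all 9 passed the filter on dim probe sets and were among the 15102 genes tested. Both probe sets that list Loxl2 also list a second gene symbol, so Loxl2 was not analysed here. The samples were tibialis cranialis muscles of 22-week-old male C57Bl/6 mice that had eaten a high fat diet from 8 weeks of age. After 4 weeks of diet, 8 mice received AAV8 ProMyo in the muscle of 1 leg and saline in the opposite leg, and tissue was collected 10 weeks later. AAV8 is an adeno-associated virus vector, and ProMyo, the myostatin propeptide, keeps that inhibitor of muscle growth inactive; the promoter of the vector is not given in the sources used here. RNA of 4 mice was combined per array, so that ProMyo pools 1-4 and 5-8 stood against saline pools 1-4 and 5-8 of the same animals. All groups share the diet, and the saline leg received no empty vector, so ProMyo and the virus itself cannot be told apart.

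Collagen is hydroxylated on proline and lysine while its chains are still in the endoplasmic reticulum. Prolyl 4-hydroxylase makes the hydroxyproline that keeps the triple helix stable at body temperature, and lysyl hydroxylases prepare lysines for sugar attachment and for crosslinks. The chaperone HSP47, the product of Serpinh1, binds the folded procollagen on its way out of the cell. Outside the cell the propeptides are cut off, and lysyl oxidases, which need copper, convert lysines to the aldehydes from which crosslinks form. In skeletal muscle, collagen is made chiefly by fibroblasts of the connective tissue between fibres and near the tendon.

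The saline 5-8 array stood apart from the other 3. Array medians lay between 1.06 and 1.11, but its upper quartile was 2.97, against 3.15 to 3.20 in the other 3, and 3262 of its genes were within the background controls (no brighter than the brightest bacterial control probe set of the array), against 1390 to 2279. The hybridization controls of the saline 5-8 array averaged 11.15, against 10.12 to 10.17 in the other 3.

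The comparison of both legs asks which expression differences accompany AAV8 ProMyo in muscle under a high fat diet. Of the 9 measured enzymes, 6 were lower in ProMyo muscle than in saline muscle in both pools (P4ha1, P4ha2, Plod3, Lox, Serpinh1 and Pcolce), and 1, Plod2, was higher in both. Over all genes tested, 24.0% were lower in both pools and 29.0% were higher in both. In the same 6 enzymes the higher ProMyo array lay below the lower saline array, which 15.7% of all genes did, and in Plod2 they lay above, which 17.8% of all genes did. The sizes were small: the log2 differences of the 6 ran from -0.49 for Lox to -0.14 for Serpinh1, so that saline muscle was between 1.40-fold and 1.10-fold above ProMyo muscle. The median over the 9 was -0.29, against 0.01 over all genes tested. No enzyme passed the test across all genes (limma, smallest adjusted p = 0.82, Lox), nor did any other gene, so that 0.00% of genes were called. In this fit, which does not pair the pools, Lox alone had an unadjusted p under 0.05, as did 5.79% of all genes (2.72% lower and 3.07% higher in ProMyo muscle). No enzyme differed by 1.5-fold or more in both pools, as 0.563% of all genes did downward and 1.03% upward. With 2 arrays per group the smallest exact permutation p is 0.333 (two-sided), so none was computed.

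**Figure D1:**
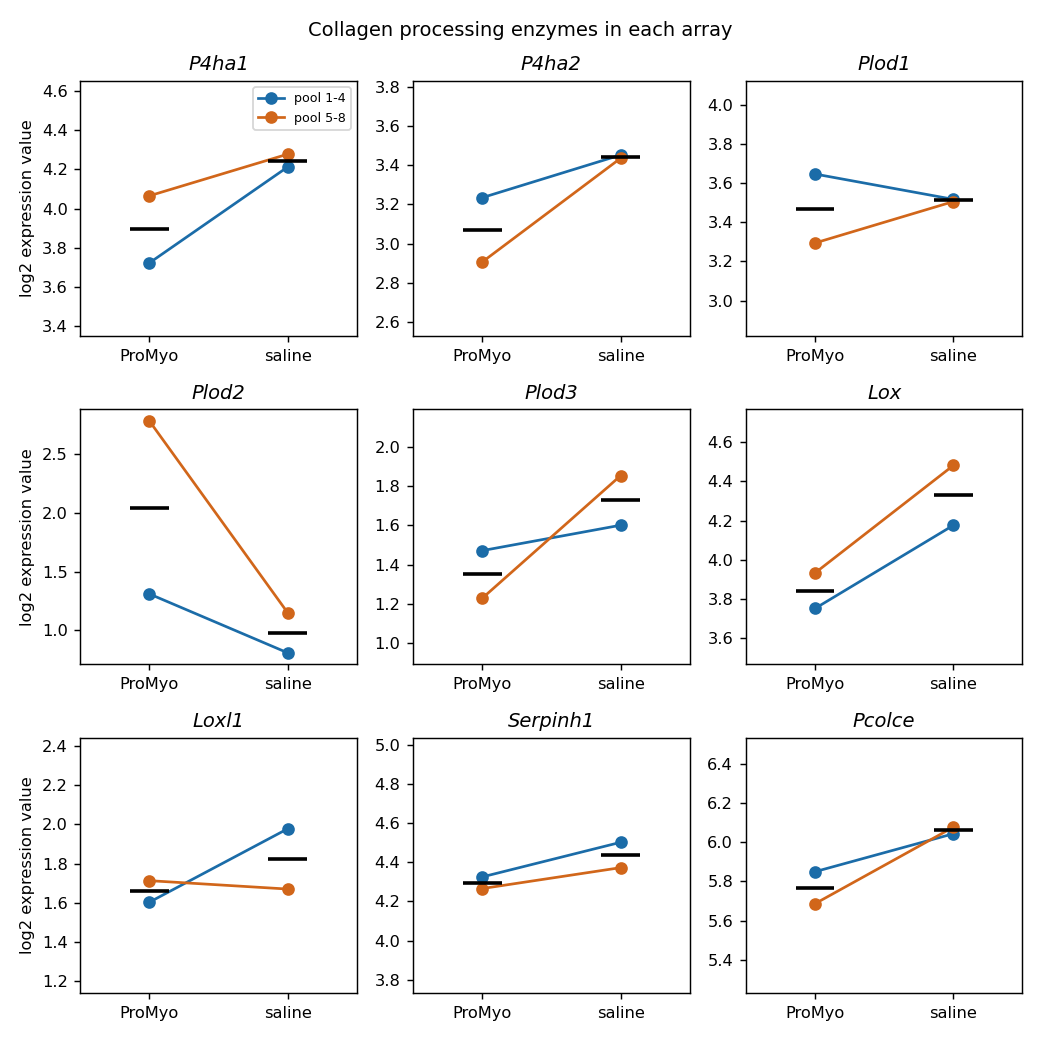
Log2 expression value of the brightest probe set of each measured enzyme, with ProMyo left and saline right in each panel. Points are arrays (pools of 4 mice), lines join the pools of the same animals and black bars are group means; the value axis covers a different range in each panel. P4ha1, P4ha2, Plod3, Lox, Serpinh1 and Pcolce lie lower in ProMyo in both pools, and Plod2 lies higher.

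Genes for prolyl and lysyl hydroxylases and for lysyl oxidase are known targets of hypoxia-inducible factors, which bind a short DNA motif. The promoters of 3 enzymes whose groups did not overlap (P4ha2, Plod3 and Serpinh1) and of 1 whose groups did (Plod1) are shown to compare this motif. Each sequence is the 250 bases before the start site on the gene's strand, 5′ to 3′, from RefSeq (GRCm38.p6). Capitals mark matches to ACGTG or GCGTG and their reverse complements CACGT and CACGC, counted on both strands and with overlaps allowed.
P4ha2 (chr11:54100674-54100923, plus strand): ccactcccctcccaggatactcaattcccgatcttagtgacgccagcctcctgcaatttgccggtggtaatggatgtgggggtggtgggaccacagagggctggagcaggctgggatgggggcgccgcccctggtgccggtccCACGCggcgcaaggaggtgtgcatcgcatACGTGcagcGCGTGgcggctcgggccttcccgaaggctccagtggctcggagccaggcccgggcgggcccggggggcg
Plod3 (chr5:136986769-136987018, plus strand): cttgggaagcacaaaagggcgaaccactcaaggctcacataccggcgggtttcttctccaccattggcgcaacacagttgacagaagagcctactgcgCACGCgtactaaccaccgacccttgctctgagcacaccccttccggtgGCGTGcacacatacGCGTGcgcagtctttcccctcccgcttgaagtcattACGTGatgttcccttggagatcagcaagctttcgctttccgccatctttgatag
Serpinh1 (chr7:99353240-99353489, minus strand): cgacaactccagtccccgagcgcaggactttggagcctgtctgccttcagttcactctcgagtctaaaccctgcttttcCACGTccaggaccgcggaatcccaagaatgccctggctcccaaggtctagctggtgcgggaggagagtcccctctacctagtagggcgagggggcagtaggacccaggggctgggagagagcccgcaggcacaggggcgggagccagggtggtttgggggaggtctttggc
Plod1 (chr4:147936777-147937026, minus strand): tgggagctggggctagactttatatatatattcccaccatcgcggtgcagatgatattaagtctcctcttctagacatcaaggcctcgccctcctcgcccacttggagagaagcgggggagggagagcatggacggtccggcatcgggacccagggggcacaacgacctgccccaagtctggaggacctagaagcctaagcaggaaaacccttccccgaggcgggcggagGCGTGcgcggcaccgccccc

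Enzyme windows on chromosome 18, where Lox lies, were left out, and none was used for Plod2, Loxl1 or Loxl2. A window was thus used for 6 of the 10 enzymes. All 6 windows carried at least 1 match, as did 38.6% of the 32851 promoter windows of the table. Each form of the motif contains the bases CG, and the shares are over all windows, not over windows of like base composition. Plod3 carried 4 matches, a number that 2.58% of windows reached or exceeded. P4ha1 and P4ha2 carried 3 each, which 6.58% of windows reached, and Plod1, Serpinh1 and Pcolce carried 1. The windows of P4ha1 and Pcolce lie in part inside the annotated gene. Matches are a description of letters and not of factor binding. Plod1, with overlapping groups, had 1 match, as did Serpinh1 and Pcolce, without overlap. P4ha1, P4ha2 and Plod3, also without overlap, had 3 or 4. The part of the motif in the differences was not tested.

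Genes known to be induced in hypoxia were also compared. Of 14 such genes, all tested, 5 were lower in both pools and 4 were higher in both, with a median difference of -0.05. Among all genes tested, 24.0% were lower in both pools and 29.0% were higher in both. Those higher were Pdk1, a kinase that restrains pyruvate dehydrogenase (0.43 ± 0.19, log2 difference ± SE, n = 2 per group), Pfkfb4 (0.46 ± 0.29), Adm (0.17 ± 0.19) and Pfkfb3 (0.13 ± 0.15), whose dimmer second probe set was lower in both pools (-0.15 and -0.11). Those lower were Ndrg1 (-0.36 ± 0.20), Egln3, a prolyl hydroxylase of the hypoxia-inducible factors (-0.27 ± 0.18), Slc2a1 (-0.17 ± 0.26), Egln1 (-0.12 ± 0.17) and Bnip3 (-0.09 ± 0.16). The counts are by the brightest probe sets. The second probe set of Ndrg1 had pools in opposite directions (-0.27 in pool 1-4 and 0.54 in pool 5-8). So did that of Adm (-0.39 in pool 1-4 and 0.23 in pool 5-8). Of the other dimmer Ndrg1 probe sets, some had pools in opposite directions and another was lower in both (-0.37 and -0.19). The dimmer probe sets of Pdk1 were higher in both pools, and those of Egln3, Egln1 and Slc2a1 were lower in both. None of the 14 passed limma's test (smallest adjusted p = 0.83).

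Prolyl 4-hydroxylase is a tetramer of catalytic alpha chains, encoded by P4ha1, P4ha2 or P4ha3, and beta chains encoded by P4hb. P4ha1 (chr10:59323197-59373304) had log2 values of 3.72 and 4.07 in ProMyo muscle, pools 1-4 and 5-8, against 4.21 and 4.28 in saline muscle. P4ha2 (chr11:54100924-54131668) had 3.23 and 2.91 in ProMyo muscle, against 3.45 and 3.44 in saline muscle. In both genes the saline pools were close together and the ProMyo pools were spread below them. The pool with the larger difference was 1-4 for P4ha1 (-0.49, against -0.21 in 5-8) and 5-8 for P4ha2 (-0.53, against -0.22 in 1-4). The mean differences were -0.35 ± 0.19 for P4ha1 and -0.37 ± 0.18 for P4ha2 (limma, adjusted p = 0.83 each). Their 95% intervals ran from -0.83 to 0.12 and from -0.84 to 0.09, so both include a difference of 0. The dimmer second probe set of P4ha1 was within the background controls in 2 of 4 arrays.

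The partner chain was lower as well. P4hb, which also serves as protein disulfide isomerase for many other proteins, had 7.68 and 7.48 in ProMyo muscle, against 8.05 and 7.82 in saline muscle. Its difference was -0.36 ± 0.18 (limma, adjusted p = 0.83), close in size to those of P4ha1 and P4ha2, and nearly equal in the pools at -0.37 and -0.34. The third alpha chain gene, P4ha3, was within the background controls in all 4 arrays.

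The 3 lysyl hydroxylases did not share a direction. Plod1 encodes the enzyme for lysines within the helix. Plod1 (chr4:147909753-147936776) had 3.65 and 3.29 in ProMyo muscle, against 3.52 and 3.51 in saline muscle. The ProMyo 1-4 array lay above and the ProMyo 5-8 array below the saline arrays, and the mean difference was -0.04 ± 0.19, or 0.13 without the ProMyo 5-8 array. Plod3 encodes an enzyme that also attaches sugars to hydroxylysine. Plod3 (chr5:136987019-136996646) had 1.47 and 1.23 in ProMyo muscle, against 1.60 and 1.85 in saline muscle, and gave a difference of -0.38 ± 0.19 (limma, adjusted p = 0.83). The groups were 0.13 apart at their nearest arrays, and most of the difference came from pool 5-8 (-0.62, against -0.13 in pool 1-4).

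Plod2 encodes the enzyme for the telopeptides at the chain ends, whose hydroxylysines lead to the more stable crosslinks found in fibrotic tissue. Plod2 (chr9:92539636-92608428) had 1.31 and 2.78 in ProMyo muscle, against 0.81 and 1.15 in saline muscle. The ProMyo 5-8 array stood far above the other 3, so the standard deviation within ProMyo muscle was 1.04, against 0.24 in saline muscle. The difference was 1.07 ± 0.50 with a 95% interval from -0.19 to 2.33 (limma, adjusted p = 0.83). With the pool as a block its SE was 0.33 (limma, unadjusted p = 0.034, adjusted p = 0.68). Leaving out the ProMyo 5-8 array gave 0.33, and leaving out ProMyo 1-4 gave 1.80. The second probe set did not show it, with 0.69 and 1.32 in ProMyo muscle, against 1.54 and 1.12 in saline muscle, a difference of -0.32. The mean of both probe sets gave 0.37. Both probe sets were dim: the brightest background control reached 0.76 in the saline 1-4 array, where the first probe set read 0.81.

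**Figure D2:**
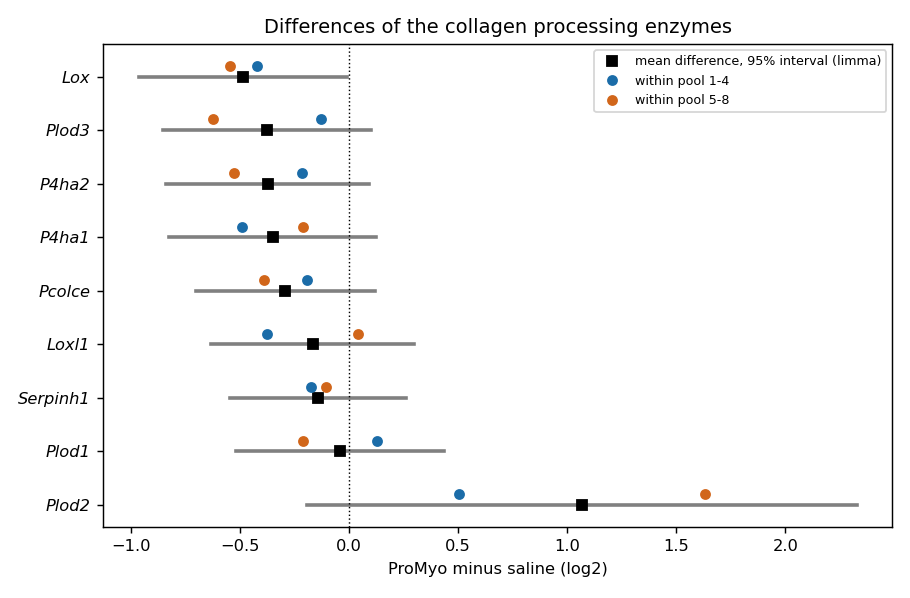
Log2 difference, ProMyo minus saline, for each measured enzyme, ordered from lowest to highest. Squares and grey lines are the mean difference and its 95% interval from limma (n = 2 arrays per group), and circles are the differences within pools 1-4 and 5-8. In this fit, which does not pair the pools, the interval of Lox ends at -0.01 and those of the other 8 enzymes include 0.

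Serpinh1 and Pcolce act between folding and assembly. Serpinh1 (chr7:99345375-99353239) had 4.32 and 4.27 in ProMyo muscle, against 4.50 and 4.37 in saline muscle. Its second probe set had 4.14 and 3.86 in ProMyo muscle, against 4.35 and 4.15 in saline muscle. In both probe sets the ProMyo arrays lay below the saline arrays, at gaps no larger than the spread within a group. The differences were -0.14 ± 0.16 for the brightest probe set (limma, adjusted p = 0.90), with a 95% interval from -0.54 to 0.26, and -0.25 for the second.

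Pcolce encodes an enhancer that speeds the removal of the C-propeptide from fibrillar procollagens by the proteinase BMP1. Pcolce (chr5:137605105-137611522) had 5.85 and 5.69 in ProMyo muscle, against 6.04 and 6.08 in saline muscle. The saline pools agreed closely and both ProMyo pools lay under them, with a difference of -0.29 ± 0.16 (limma, adjusted p = 0.83). The second probe set had 4.37 and 4.16 in ProMyo muscle, against 4.49 and 4.36 in saline muscle, so that it was lower within each pool but its groups overlapped. Plod3 and Pcolce lie on the same chromosome, 608.5 kb apart.

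Lox had the lowest difference of the measured enzymes. Lysyl oxidase, its product, starts the covalent crosslinking of collagen and elastin. Lox (chr18:52516060-52529867) had 3.75 and 3.93 in ProMyo muscle, against 4.18 and 4.48 in saline muscle. Pool 5-8 was above pool 1-4 in both groups, and the difference was alike within the pools, at -0.42 and -0.55. The mean difference was -0.49 ± 0.19 with a 95% interval from -0.96 to -0.01 (limma, unadjusted p = 0.048, adjusted p = 0.82). Of all genes tested, 3.54% had a lower difference. The second probe set differed by -0.41 but unevenly, with 2.30 and 1.88 in ProMyo muscle, against 2.26 and 2.74 in saline muscle. The third was within the background controls in all 4 arrays.

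Loxl1, a lysyl oxidase known for its part in elastic fibres, did not part the groups. Loxl1 (chr9:58287723-58313212) had 1.60 and 1.71 in ProMyo muscle, against 1.98 and 1.67 in saline muscle. The difference was -0.17 ± 0.18 (limma, adjusted p = 0.90), and it lay in pool 1-4: without the saline 1-4 array it was -0.01, and without saline 5-8 -0.32. Among lysyl oxidases outside the 10 enzymes, Loxl4 had 1.78 and 1.73 in ProMyo muscle, against 2.05 and 2.74 in saline muscle. The difference was -0.64 ± 0.26, and most of it came from pool 5-8 (-1.01, against -0.27 in pool 1-4). The dimmer second probe set of Loxl4 differed by 0.03, with pools in opposite directions (0.35 in pool 1-4 and -0.29 in pool 5-8). Loxl3 had 1.62 and 0.86 in ProMyo muscle, against 1.44 and 1.57 in saline muscle, and its groups overlapped.

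**Figure D3:**
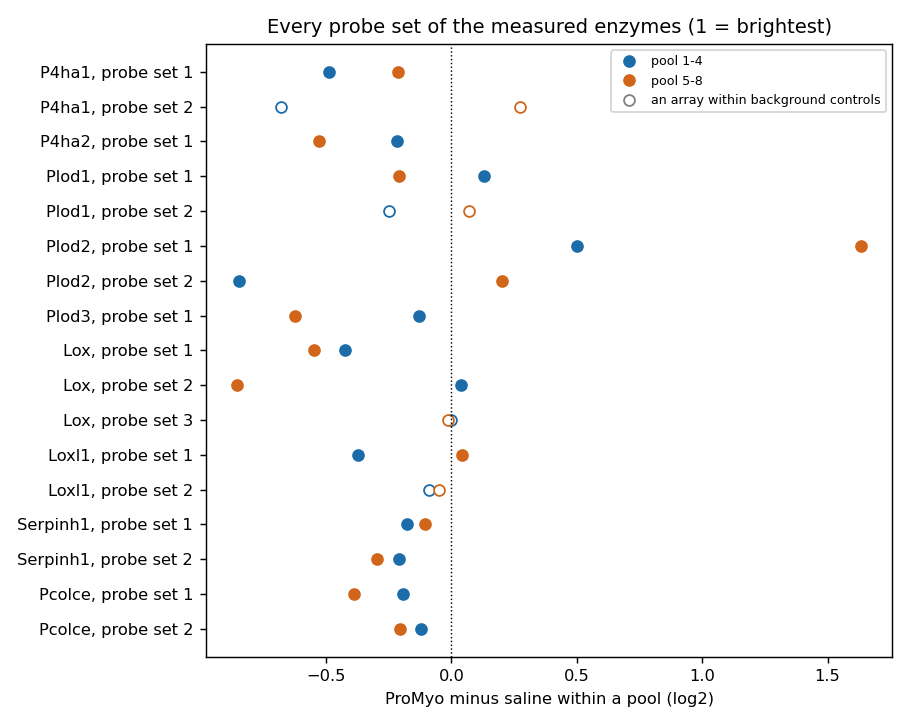
Log2 difference, ProMyo minus saline, within pools 1-4 and 5-8 for every probe set that lists a measured enzyme alone; probe set 1 is the brightest. Open circles mark probe sets with at least 1 array within the background controls. Both probe sets of Serpinh1 and of Pcolce lie below 0 in both pools, whereas those of Plod2 differ in direction in pool 1-4.

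Of 29 other collagen processing genes 23 were tested; in both pools 5 were lower in ProMyo muscle, 7 were higher, and the median difference was -0.02. These counts are close to the shares of all genes, 24.0% lower and 29.0% higher in both pools. Those lower were P4hb, Loxl4, the export factor Mia2, which was within the background controls in 3 of 4 arrays, the collagen galactosyltransferase Colgalt1 (-0.16 ± 0.27) and Fmod, a collagen-binding proteoglycan that guides lysyl oxidase (-0.53 ± 0.16). The second probe set of Colgalt1 was higher in both pools, at 0.21 and 0.34. Those higher included Adamts3, a proteinase that removes N-propeptides (0.50 ± 0.21), Ppib, a prolyl isomerase of the endoplasmic reticulum (0.34 ± 0.19), and Mia3, which loads procollagen into transport carriers (0.28 ± 0.17). Bmp1, the proteinase that Pcolce assists, differed by -0.02 ± 0.15. Ppib and its partners in prolyl 3-hydroxylation, P3h1 (0.35 ± 0.35) and Crtap (0.03 ± 0.15), act on the same chains as P4ha1 and P4ha2. By their brightest probe sets they were not lower in either pool. The second probe set of Ppib, nearly as bright, had pools in opposite directions (0.23 in pool 1-4 and -0.30 in pool 5-8). None of the 23 passed limma's test (smallest adjusted p = 0.82).

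Collagen chain genes encode the substrates of these enzymes. Of 20 collagen chain genes tested, 11 were lower in both pools and 0 were higher in both, against 24.0% and 29.0% of all genes. Their median was -0.17, and -0.06 without the saline 1-4 array. By the brightest probe sets, the chains of type I collagen had the lowest differences, -0.78 ± 0.15 for Col1a2 and -0.68 ± 0.18 for Col1a1. The differences of Col6a1, Col4a5 and Col3a1 were -0.41 ± 0.19, -0.40 ± 0.16 and -0.19 ± 0.18. The second probe sets differed by -0.35 for Col1a2 and -0.88 for Col1a1. That of Col5a2 differed by -0.65, against -0.04 for its brightest. The second probe set of Col3a1 differed by 0.27, with pools in opposite directions. The differences of Lox, P4ha1, P4ha2 and Pcolce lay between that of Col3a1 and that of Col1a1. None of the 20 passed limma's test (smallest adjusted p = 0.82).

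**Figure D4:**
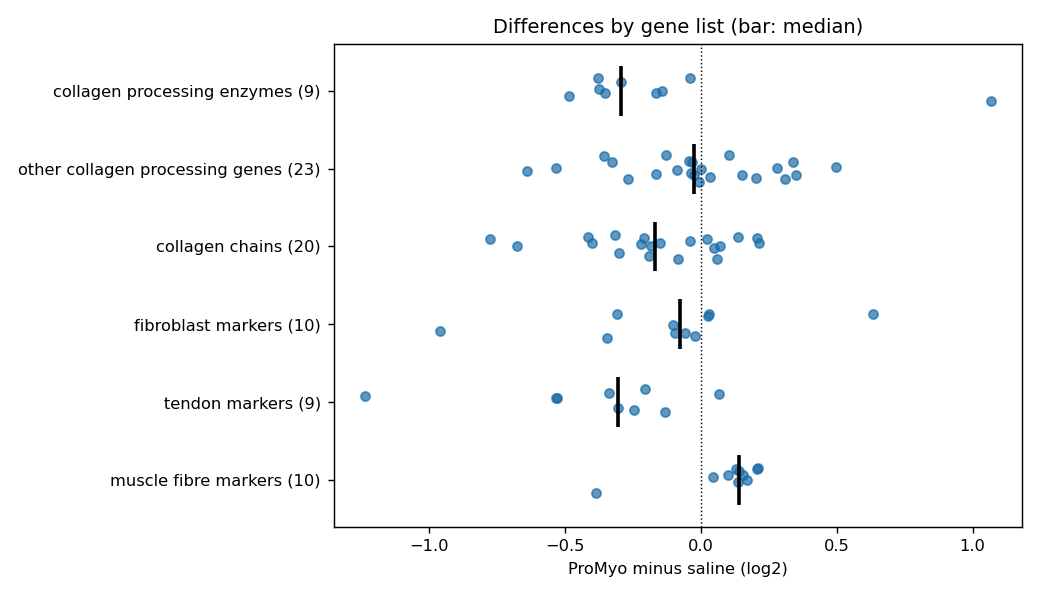
Log2 difference, ProMyo minus saline, of each gene tested in 6 lists; the number in brackets is the count of genes tested and the black bar is the median. The median is -0.29 for the collagen processing enzymes, -0.02 for the other collagen processing genes and -0.17 for the collagen chains, against 0.14 for the muscle fibre markers. Points are spread at random in height.

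Markers of collagen-making cells and of muscle fibres were also compared. For comparison, 24.0% of all genes were lower in both pools and 29.0% were higher in both. Of 9 tendon markers 7 were lower in both pools and 0 were higher in both (median -0.31), and their summed level, as log2, was 9.83 and 9.69 in ProMyo muscle, against 10.19 and 10.26 in saline muscle. Of their defining genes, Tnmd had 5.33 and 5.22 in ProMyo muscle, against 5.39 and 5.43 in saline muscle, and Scx had 1.31 and 1.16 in ProMyo muscle, against 1.07 and 1.27 in saline muscle. Chad (-1.24 ± 0.28) and Fmod, which is also in the collagen processing list, had the smallest p-values. Of 10 fibroblast markers 6 were lower in both pools and 2, Lum and Mfap5, were higher, Mfap5 by 0.03 and not in its second probe set (-0.21 and -0.11 in the pools). The median was -0.08, with summed levels of 10.29 and 10.23 in ProMyo muscle, against 10.43 and 10.48 in saline muscle. Pi16 (-0.96 ± 0.20) and Lum (0.63 ± 0.25) had the smallest p-values, and Pdgfra differed by -0.10 ± 0.16. By their brightest probe sets, all tendon and fibroblast markers were above the background controls in all 4 arrays. Of 10 muscle fibre markers 9 were higher in both pools, with a median of 0.14 and summed levels of 15.04 and 14.97 in ProMyo muscle, against 14.93 and 14.84 in saline muscle. Myh2 was the exception (-0.39 ± 0.19), and Mylpf stood at 0.21 ± 0.15. These counts rest on the brightest probe sets. The second probe set of Myh4 was lower in both pools (-0.21 and -0.13). The third of Myh1 and the second of Tnni2 had pools in opposite directions, whereas the second of Ckm and of Myh1 were higher in both. The part of these cells in the enzyme differences was not tested, and in whole muscle fewer cells of a type and less RNA per cell cannot be told apart.

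Without the saline 5-8 array the differences were -0.33 for Lox, -0.32 for P4ha1, -0.38 for P4ha2, -0.25 for Plod3, -0.21 for Serpinh1, -0.27 for Pcolce and -0.32 for Loxl1. Other arrays also moved single differences by over 1.5 times: P4ha1 stood at -0.18 without ProMyo 1-4, P4ha2 at -0.21 without ProMyo 5-8 and Serpinh1 at -0.08 without saline 1-4. The signal of Gapdh at its 3′ end over its 5′ end, a measure of RNA integrity, was 0.58 and 0.74 log2 units in ProMyo muscle, against 0.90 and 0.81 in saline muscle, and its part in the differences was not tested.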

How the data were processed

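Expression was measured on 4 Affymetrix arrays, 2 per group, each with pooled RNA of 4 mice. The authors deposited log2 expression values per probe set. The submitters' processing notes name RMA and Affymetrix Expression Console without versions, and the log base was read from the range of values (-0.45 to 13.15). Array medians near 1 are low for RMA, so folds hold on the deposited scale. The number of arrays limits the precision.

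Of 45101 probe sets, 34945 had 1 gene symbol, 932 had several, 9160 had none and the other 64 were controls, which were left out. Gene identifiers matched RefSeq (GRCm38.p6) for 34741, with 0 symbols changed. Each gene was read from its brightest probe set, and genes whose mean fell under the 25th percentile of all probe sets (0.45) were removed, leaving 15102. The brightest Bacillus control of each array (0.57 to 0.99) marked background.

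The groups were compared by limma 3.58.1 in R 4.3.3 (lmFit, then eBayes with no trend). P-values were adjusted by Benjamini-Hochberg over all genes, with a threshold of 0.05; the script was tested on simulated data. Standard errors and 95% intervals are from this fit. Same-numbered pools come from the same animals and are thus paired by design; their deviations from the group means correlated with r = 0.16 across genes. Lists covered other collagen processing genes, collagen chains, genes induced by hypoxia or TGF-beta, and cell type markers. The enzymes, lists and named genes (all 10 enzymes, the smallest p-values of each list, genes behind small counts) were chosen with earlier results of these data known. Alternatives were the pool as a block, other filters, variance trend, median centring, quantile normalization, probe sets averaged by gene and leaving out each array.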

Additional observations from a re-analysis of the deposited data

How the results depend on the processing

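With the pool of animals as a replicate block limma also called 0 genes, and 0 were called under each of the other 10 alternatives. In that paired fit 1039 genes passed 0.05 before adjustment, against 874 in the unpaired fit. Plod2 and Lox were among the 1039, with limma adjusted p = 0.68 each, and no call changed. The median difference of the 9 enzymes was -0.35 with quantile normalization and -0.23 with probe sets averaged by gene, and ranged from -0.31 to -0.21 when each array was left out. Between 7 and 8 of the 9 enzymes were lower on average under every alternative. Plod1 turned to 0.13 without the ProMyo 5-8 array and stood at -0.22 without ProMyo 1-4, and no other enzyme reversed under any alternative. Genes at least 1.5-fold apart in both pools numbered 241, against 148 with the mean of probe sets and 421 to 1095 without an array. Genes whose groups do not overlap numbered 5066, against 9438 to 10929 without an array, where fewer arrays have to be parted. The block and the variance trend leave medians and these counts as they are. Genes near the background controls have uncertain differences. Among the enzymes, Plod2, Plod3 and Loxl1 were dim, with means over the arrays of 1.51, 1.54 and 1.74.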

Other observations

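Of 7 genes known to be induced by TGF-beta, 5 were tested. Ccn2, a matricellular growth factor, was lower in ProMyo muscle in both pools, with 5.24 and 5.17 in ProMyo muscle, against 5.46 and 5.43 in saline muscle (-0.24 ± 0.15, log2 difference ± SE), and Thbs1 was within the background controls in 3 of 4 arrays. Tgfbi (-0.17 ± 0.18), Skil (-0.10 ± 0.20) and Smad7 (-0.03 ± 0.17) differed in direction between the pools. The median was -0.10, and none passed limma's test (smallest adjusted p = 0.84).

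Markers of other cell types in whole muscle were also compared. The shares over all genes were 24.0% lower and 29.0% higher in both pools. Of 10 macrophage markers 4 were lower in both pools (C1qb, Mrc1, Adgre1 and Csf1r) and 1, Cd163, was higher, with a median of -0.19. C1qb stood at -0.48 ± 0.17 and Mrc1 at -0.45 ± 0.17. The second probe set of C1qb was also lower in both pools. The third of C1qb and the dimmer probe sets of Csf1r had pools in opposite directions. Of 7 endothelial markers 0 were lower and 3 (Tie1, Cdh5 and Kdr) were higher in both pools, with a median of 0.08 (Tie1 0.51 ± 0.38, Cdh5 0.17 ± 0.15). Among 6 markers of smooth muscle and pericytes, whose median was 0.09, Tagln stood at 0.78 ± 0.27 and Acta2 at -0.46 ± 0.21, so that these smooth muscle genes differed in opposite directions. Of 4 adipocyte markers tested, with a median of -0.25, 1, Retn, was lower in both pools (-0.46 ± 0.27), and Adipoq stood at -0.60 ± 0.43 with pools in opposite directions. Of 4 Schwann cell markers tested, with a median of -0.14, 1, Mbp, a myelin protein gene, was lower in both pools. Its brightest probe set had 2.60 and 2.14 in ProMyo muscle, against 3.12 and 3.16 in saline muscle (-0.76 ± 0.21). Of its dimmer probe sets, some were lower in both pools and others had pools in opposite directions. Among the latter was the second, nearly as bright (-0.56 in pool 1-4 and 0.41 in pool 5-8, mean -0.07). Pmp22 stood at -0.14 ± 0.17. None of these markers passed limma's test (smallest adjusted p = 0.82).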
